A study of Mus musculus with 18 samples.

Results

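The genes described here are 38 autophagy genes and TFEB family regulators: the core ATG genes, the ULK and class III PI3 kinase complexes, the LC3 and GABARAP proteins, Sqstm1, the DRAM proteins, and Tfeb and Tfe3. They were taken by symbol from a list of autophagy genes that was drawn up with earlier results of these data known, and the rule itself uses no measured value. All 38 are among the 25239 genes of the expression table and among the 12828 genes that were tested, which had a TPM (transcript level corrected for gene length and scaled to the same total in each library) of 1 or more in 3 or more of 18 samples. Dram1 passed that filter only through Restored samples, since its highest Control value was 0.992 TPM. The other 37 genes had at least 1 TPM in all 18 samples.

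RNA was sequenced from 3 lines of the Type D class (4711-1, 4711-18 and 4716-11), derived from mouse small cell lung cancers (SCLC). Every line, controls included, lacks Rb1 and Rbl2 through Cre delivered to the lung with an adenovirus, and carries the trapped Trp53 XTR allele together with a Rosa26 FlpO-ER recombinase, so that 4-hydroxytamoxifen (4-OHT) returns p53. Each line carried a control sgRNA against Bgal (sgBgal) or 1 of 2 sgRNAs against Ppia, the gene of cyclophilin A (sgPpia#3.2 and sgPpia#4.1), and received vehicle (Control) or 4-OHT (Restored) for 72 h. That gave 6 groups of 3 samples, 1 from each line. Each line is a single tumor-derived culture, 4711-1 and 4711-18 share the first part of their name, and 4-OHT itself is present in the Restored samples only, so that p53 and 4-OHT cannot be told apart.

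Macroautophagy encloses cytoplasm in a double membrane that fuses with the lysosome. The ULK1 kinase complex starts the process, a class III PI3 kinase complex makes the lipid PI3P at the forming membrane, ATG9 vesicles and ATG2 supply lipid, and a pair of ubiquitin-like conjugation reactions attaches LC3 and GABARAP proteins to the membrane, where receptors such as p62 (Sqstm1) bring in cargo. TFEB and TFE3 are transcription factors that bind the CACGTG core of the CLEAR element in many lysosomal and autophagy genes, and p53 is known to activate several autophagy genes, among them Dram1.

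The start-proximal sequences are shown for Atg9b, because it had the largest response, and for the genes that hold the CACGTG core. RefSeq windows from 250 bases before to 50 after the start (GRCm38.p6) were found for 32 of the 38 genes, 37 windows in all. The 250 bases upstream of Atg9b (chr5:24392144-24392393, minus strand), printed 5′ to 3′ with the CG dinucleotide in capitals, held 1 CG:
Atg9b: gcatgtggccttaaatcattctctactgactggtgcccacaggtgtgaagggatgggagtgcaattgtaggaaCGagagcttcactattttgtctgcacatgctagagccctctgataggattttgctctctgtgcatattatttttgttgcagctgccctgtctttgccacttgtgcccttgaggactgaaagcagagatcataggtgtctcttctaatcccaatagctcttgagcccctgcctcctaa
The whole Atg9b window had 2 CG, and 14.1% of all 32851 windows had fewer. The median over the 37 windows of the autophagy genes was 20 CG, against 7 over all windows. The window of its paralogue Atg9a had 18.

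CACGTG was found in 4 of the 37 windows (10.8%) and in 7.15% of all windows. It reads the same on both strands. The 26 bases around it are given for the 4 genes, with the motif in capitals.
Atg7 (chr6:114670954-114670979, plus strand): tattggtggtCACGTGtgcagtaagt
Atg14 (chr14:47568420-47568445, minus strand): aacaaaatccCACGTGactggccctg
Atg5 (chr10:44268315-44268340, plus strand): gagcgcttgcCACGTGgtcttggtga
Atg3 (chr16:45158725-45158750, plus strand): ctccttttgtCACGTGtcctgggaga
Of these, Atg7 and Atg14 passed both thresholds after p53 restoration with sgBgal and Atg5 and Atg3 did not. The RefSeq start used for Atg7 lies 27999 bases inside the gene as GENCODE M21 draws it, and that of Atg14 lies 2215 bases inside. The p53 half-site, searched on both strands, was in 1 of the 37 windows, that of Atg4a, and in 8.36% of all windows. A p53 response element made of such half-sites was in 0 of the 37 and in 0.0731% of all windows. These matches only describe the letters of the windows.

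The libraries followed their labels. Trp53 ranged from 5.45 to 8.41 TPM over the 9 Control samples and from 181 to 236 over the 9 Restored samples. In Control samples Ppia ranged from 2575 to 2849 TPM with sgBgal, from 658 to 1207 with sgPpia#3.2 and from 1684 to 1952 with sgPpia#4.1, so that its RNA was lowered rather than absent. The neuroendocrine markers Chga, Calca and Dll3 were under 1 TPM in all 18 samples. Of the immune markers, Ptprc, Adgre1 and Cd3e were under 1 TPM throughout, and the summed level of the 4 listed genes, 2.22 to 7.13 TPM in Control and 21.3 to 39.8 TPM in Restored samples, was thus almost all Cd68, which encodes a lysosomal membrane protein. All 4 fibroblast markers and 2 of 3 endothelial markers were under 1 TPM throughout.

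Without p53, the autophagy genes spanned a wide range of levels, with cargo receptor and LC3-like genes at the top. Sqstm1 led with a median of 854 TPM over the 9 Control samples (769 to 1363), followed by Gabarap at 403 (373 to 451), Map1lc3b at 250.3 (215 to 336), Gabarapl2 at 229 (215 to 253), Gabarapl1 at 185 (111 to 222) and Atg101, a subunit of the ULK1 complex, at 138 TPM (123 to 156). At the other end were Atg9b, a multispanning membrane protein of ATG9 vesicles and a lipid scramblase, at 3.14 TPM (1.44 to 5.42) and Dram1, a lysosomal membrane protein, at 0.769 TPM (0.120 to 0.992). In this order Sqstm1 did not overlap Gabarap, Gabarap did not overlap Map1lc3b, Atg101 did not overlap the next gene, Map1lc3a, and Atg9b did not overlap Dram1. All other neighbours overlapped in their range over samples.

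**Figure D1:**
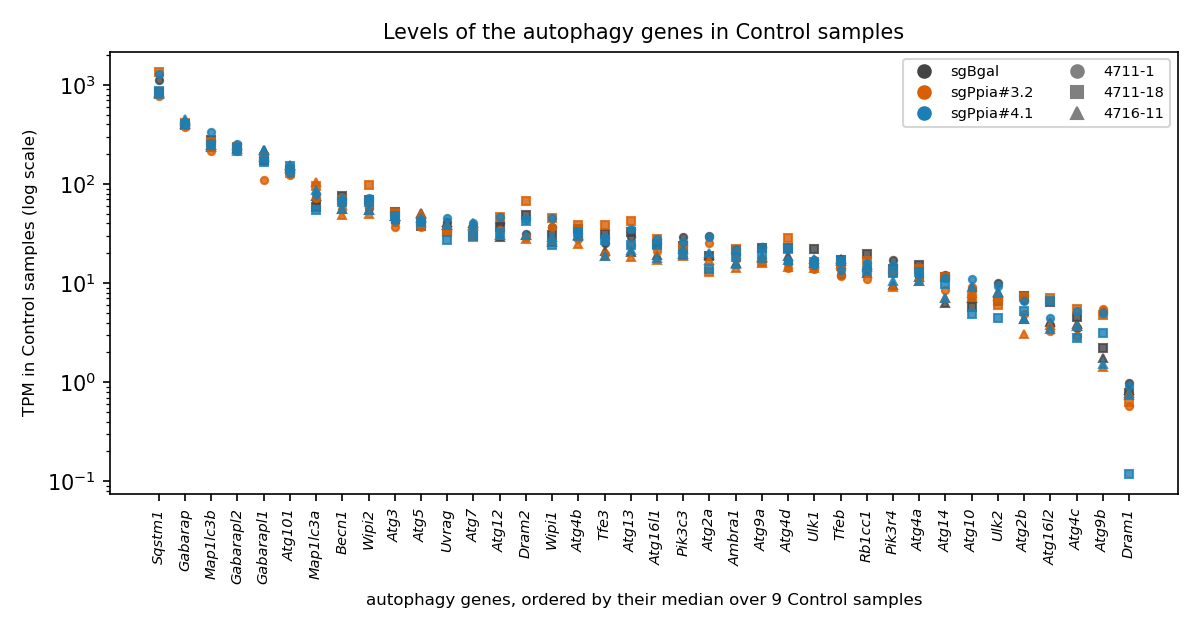
TPM of each autophagy gene in the 9 Control samples, on a log axis, ordered by the median; color marks the sgRNA and shape the cell line. Sqstm1 lies highest, with a median of 854 TPM, and Dram1 lowest, with 0.769 TPM.

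To ask which of these genes respond to p53, Restored was compared with Control for each sgRNA. Atg9b, Atg7, Atg14 and Wipi1 rose with sgBgal, and Atg9b and Atg7 rose with both Ppia sgRNAs, by a call that asked for a Benjamini-Hochberg adjusted p under 0.05 in limma over all 12828 genes and a log2 fold change of at least 1. That was 4 of 38 genes with sgBgal and 2 with each Ppia sgRNA, where 5.46%, 4.44% and 4.3% of all genes were called up with sgBgal, sgPpia#3.2 and sgPpia#4.1. None was called down with any sgRNA, where 2.17%, 1.31% and 1.79% of all genes were. At the adjusted p alone, 7, 4 and 4 genes were higher in Restored samples and none was lower, against 9.86%, 7.62% and 7.16% of all genes higher and 3.96%, 2.39% and 3.14% lower. Atg7, Atg9b and Ulk1 passed it with all 3 sgRNAs, Pik3r4 with sgBgal and sgPpia#3.2, Atg14, Wipi1 and Atg4c with sgBgal, and Gabarapl2 with sgPpia#4.1.

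Many more autophagy genes showed smaller differences that recurred in each line. Of the 38, 24 were higher in Restored than in Control samples in 9 of 9 pairs of the same line and sgRNA, where 30.8% of all genes tested were. A mean difference above 0 was found for 36 of the 38, all except Atg4d and Atg9a, and for 65.2% of all genes. Dram1 is among the 36. In the fit that uses this pairing, where each line is a replicate block, 24 genes passed the adjusted p with sgBgal and 19 with each Ppia sgRNA, all of them higher, where 30.2%, 25.3% and 24.3% of all genes were higher and 12%, 8.86% and 10.8% lower. Without Dram1, which entered the test only through its Restored samples, the count with sgBgal was 23 of 37. Of these autophagy genes, 17 passed with all 3 sgRNAs. The share of all genes higher with all 3 was not counted, and it cannot be above 24.3%. The call with the fold threshold then gave 4, 3 and 2 genes, Atg14 being the gene added with sgPpia#3.2, against 7.7%, 6.4% and 6.26% of all genes.

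Over the 38 genes the median log2 fold changes were 0.44, 0.38 and 0.42, in the order sgBgal, sgPpia#3.2, sgPpia#4.1 that is kept below for values given in threes, and over all genes tested they were 0.19, 0.17 and 0.15. Rescaling the libraries by median-of-ratios removed this shift of all genes (medians of -0.0025, -0.0068 and -0.0027) and left medians of 0.22, 0.19 and 0.25 for the autophagy genes, so that the sign of a log2 fold change smaller than the shift depends on the scaling. Above the median of all genes lay 30, 31 and 31 of the 38 genes, and 29 with each sgRNA after rescaling. The 38 genes of these medians and counts include Dram1, which entered only through its Restored samples. All 3 Restored samples lay above all 3 Control samples for 16, 14 and 16 of the 37 genes other than Dram1 and below them for 0. Over all genes tested the shares above were 22.1%, 19.1% and 17.8% and the shares below 9.19%, 7.43% and 8.23%. In bulk samples a change in RNA per cell and a change in which cells are left cannot be told apart, and Type D cells die after restoration.

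**Figure D2:**
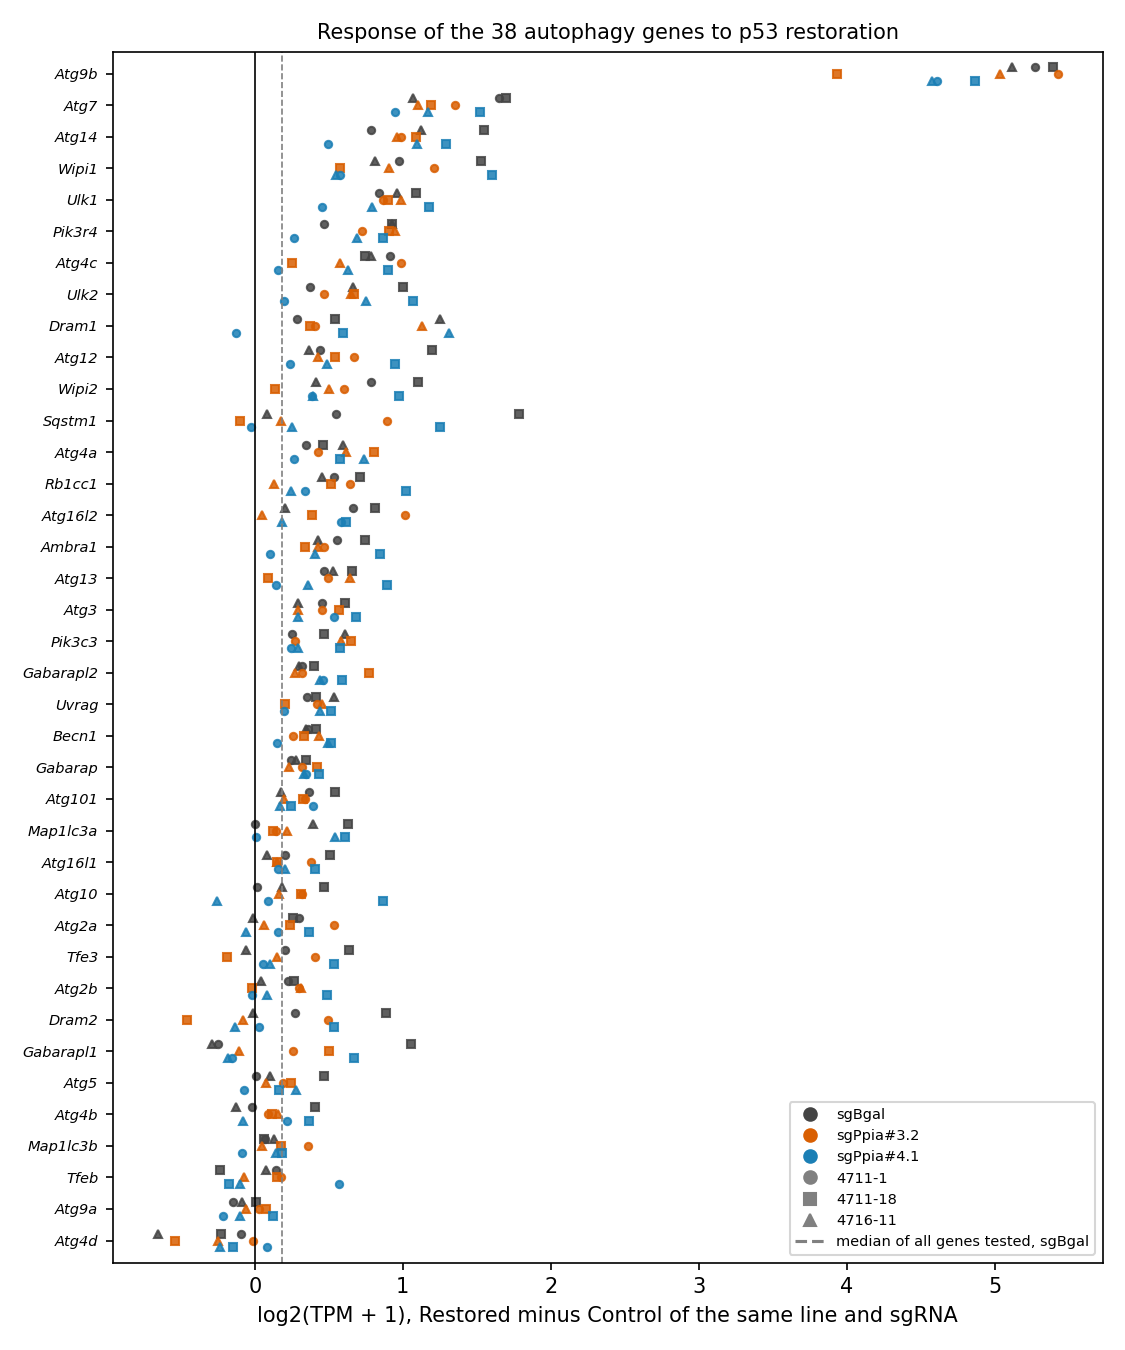
Difference in log2(TPM + 1) between the Restored and the Control sample of the same line and sgRNA for each of the 38 genes, ordered by the mean; color marks the sgRNA, shape the line, and the dashed line the median of all genes tested with sgBgal. Atg9b stands apart at 3.93 to 5.42, and most other points lie to the right of 0.

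Among the genes of membrane supply and of PI3P effectors, Atg9b (chr5:24384181-24392143, minus strand, GRCm38) had the largest response of the list. Its TPM, given here and below for 4711-1, 4711-18 and 4716-11 in that order, was 5.19, 2.21 and 1.74 in Control and 239, 134 and 93.9 in Restored samples with sgBgal. With sgPpia#3.2 it was 5.42, 4.78 and 1.44 in Control and 275, 87.3 and 78.9 in Restored samples, and with sgPpia#4.1 it was 5.02, 3.14 and 1.53 against 146, 119.7 and 59.1. The lowest Restored sample was thus above the highest Control sample by more than the whole range of the Control samples. The log2 fold changes were 5.26 ± 0.56 (SE), 4.80 ± 0.56 and 4.68 ± 0.56, with limma adjusted p of 2.95e-05, 7.62e-05 and 0.000101 (n = 3 per group), and the ratio of mean TPM was 51.1, 37.9 and 33.5.

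Atg9a, the paralogue of Atg9b that most tissues use, did not pass the test with any sgRNA. Its TPM lay between 16.0 and 23.0 in Control and between 15.4 and 23.0 in Restored samples, and its log2 fold changes were -0.07, 0.02 and -0.06. The balance between the paralogues therefore turned over in each line: Atg9b made up 7.80% to 23.7% of the summed TPM of both in Control samples and 77.9% to 93.9% in Restored samples. The ratio of Atg9b to Atg9a had a median of 0.160 in Control (0.0846 to 0.310) and of 5.57 in Restored samples (3.53 to 15.4). Within the list Atg9b moved from rank 37 by median TPM to rank 7. In GENCODE M21, 7.45% of Atg9b exonic bases are shared with Nos3 on the other strand, which reached at most 0.516 TPM, and 31.8% of Atg9a exonic bases are shared with the transcript Gm29253 on the same strand, so that Atg9a reads could be split.

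Wipi1 (chr11:109573331-109611967, minus strand), a PI3P-binding protein recruited to forming autophagosomes, rose with sgBgal from 37.3, 30.7 and 26.2 TPM to 74.2, 90.2 and 46.9 TPM, with no overlap between the groups. The log2 fold changes were 1.10 ± 0.31 with sgBgal (limma adjusted p = 0.028), 0.90 ± 0.31 with sgPpia#3.2 (0.0822) and 0.91 ± 0.31 with sgPpia#4.1 (0.0769), and with the replicate block the adjusted p were 0.000983, 0.00439 and 0.00395. With sgPpia#3.2 its TPM was 36.4, 45.9 and 27.1 in Control and 85.6, 68.8 and 51.7 in Restored samples, and with sgPpia#4.1 it was 45.1, 24.5 and 29.5 against 67.6, 76.5 and 43.8, again higher in each line. The call with sgBgal was lost without 4711-1, 4711-18 or 4716-11 at log2 fold changes of 1.17, 0.89 and 1.25 (adjusted p of 0.134, 0.203 and 0.0618), and the value was 0.89 after rescaling. Its relative Wipi2, which binds ATG16L1, had log2 fold changes of 0.77, 0.41 and 0.59 and passed the adjusted p with the block for sgBgal and sgPpia#4.1 (0.00181 and 0.0102), not for sgPpia#3.2 (0.0522). The lipid transfer proteins Atg2a and Atg2b had log2 fold changes between 0.15 and 0.28 and passed neither fit.

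In the conjugation machinery Atg7 (chr6:114643097-114860614, plus strand), the E1-like enzyme that activates both ATG12 and the LC3 proteins, stood out. Its TPM with sgBgal was 37.7, 30.1 and 40.2 in Control and 121, 99.6 and 85.3 in Restored samples. With sgPpia#3.2 it was 37.3, 29.2 and 38.3 against 96.7, 68.1 and 83.6, and with sgPpia#4.1 it was 40.1, 29.8 and 37.8 against 78.4, 87.4 and 86.3. All 9 Restored samples lay above all 9 Control samples. The log2 fold changes were 1.47 ± 0.19, 1.22 ± 0.19 and 1.21 ± 0.19, with limma adjusted p of 0.00016, 0.000832 and 0.000859, and ratios of mean TPM of 2.83, 2.37 and 2.34. Without 4716-11, the adjusted p was 0.0548 with sgPpia#3.2 and 0.0551 with sgPpia#4.1, at log2 fold changes of 1.27 and 1.24.

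The partners of ATG7 had smaller fold changes. Atg3, the E2-like enzyme for LC3, had log2 fold changes of 0.45, 0.44 and 0.50, and Atg12, the ubiquitin-like protein joined to ATG5, had 0.67, 0.55 and 0.56, and both passed the adjusted p with the block for all 3 sgRNAs. Atg5 itself was 43.7, 37.9 and 51.1 TPM in Control and 44.0, 52.7 and 55.0 TPM in Restored samples with sgBgal. The groups overlapped, and its log2 fold changes of 0.19, 0.17 and 0.12 passed neither fit (lowest limma adjusted p 0.159, with the block). Atg10, the E2-like enzyme for ATG12, had 0.22, 0.27 and 0.23, and Atg16l1, which places the conjugate on the membrane, had 0.26, 0.23 and 0.26. Neither passed. Atg16l2 had 0.56, 0.48 and 0.46 and passed with the block for sgBgal and sgPpia#3.2 (0.0183 and 0.0425).

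Among the 6 genes of the class III PI3 kinase complex and its regulators, Atg14 (chr14:47540893-47570649, minus strand), the subunit that directs the kinase to autophagosome formation, was called with sgBgal. Its TPM was 12.0, 11.5 and 6.24 in Control and 21.4, 35.5 and 14.8 in Restored samples. The groups did not overlap, and 4711-18 had the highest Restored value. With sgPpia#3.2 it was 8.48, 11.6 and 7.12 TPM in Control and 17.8, 25.8 and 14.8 TPM in Restored samples, and with sgPpia#4.1 it was 11.3, 9.81 and 7.03 against 16.4, 25.5 and 16.2. The log2 fold changes were 1.15 ± 0.33, 1.01 ± 0.33 and 0.96 ± 0.33, with limma adjusted p of 0.0314, 0.0666 and 0.0803 and, with the block, 0.000269, 0.000818 and 0.0011. The call with sgBgal was lost without 4711-1, 4711-18 or 4716-11 at log2 fold changes of 1.34, 0.95 and 1.17 (adjusted p of 0.157, 0.121 and 0.0904), and also after rescaling (0.95) and without the filter on low values (adjusted p = 0.0528). With the block, where 30.2%, 25.3% and 24.3% of all genes were higher, all 6 genes passed the adjusted p with every sgRNA. They were Atg14, the catalytic subunit Pik3c3 (0.44, 0.50 and 0.37), its regulatory partner Pik3r4 (0.77, 0.86 and 0.61), the scaffold Becn1 (0.37, 0.34 and 0.39), Uvrag (0.43, 0.36 and 0.38) and Ambra1 (0.58, 0.41 and 0.45). Without 1 of the lines, Pik3r4 had an adjusted p of 0.111 to 0.204 with sgBgal and of 0.115 to 0.138 with sgPpia#3.2. Antisense overlap with other genes covers 43.9% of Becn1 exonic bases, where the partner Cntd1 reached at most 1.34 TPM, and 17.6% of those of Uvrag.

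Of the 5 genes of the ULK1 complex, the kinase Ulk1 (chr5:110784488-110810097, minus strand) passed the adjusted p with all 3 sgRNAs but stayed under the fold threshold. With sgBgal its TPM was 17.1, 21.9 and 16.0 in Control and 31.4, 47.6 and 32.0 in Restored samples, with no overlap. The log2 fold changes were 0.96 ± 0.21, 0.92 ± 0.21 and 0.81 ± 0.21 (limma adjusted p of 0.00757, 0.0116 and 0.0235). The related kinase Ulk2 had 0.68, 0.60 and 0.67 and passed with the block for all 3 sgRNAs. The scaffold Rb1cc1, also known as FIP200, had 0.57, 0.43 and 0.54 and passed with the block for sgBgal and sgPpia#4.1 (0.0171 and 0.0264). The regulatory subunit Atg13 had 0.55, 0.41 and 0.47 and passed for sgBgal (0.024), and Atg101, which stabilizes ATG13, had 0.36, 0.29 and 0.27 and passed for sgBgal and sgPpia#3.2 (0.0123 and 0.0421). When 4711-1, 4711-18 or 4716-11 was left out, the limma adjusted p of Ulk1 was 0.0492, 0.0306 and 0.128 with sgBgal, 0.0744, 0.0284 and 0.224 with sgPpia#3.2 and 0.0504, 0.127 and 0.246 with sgPpia#4.1, at log2 fold changes of 0.62 to 1.02.

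**Figure D3:**
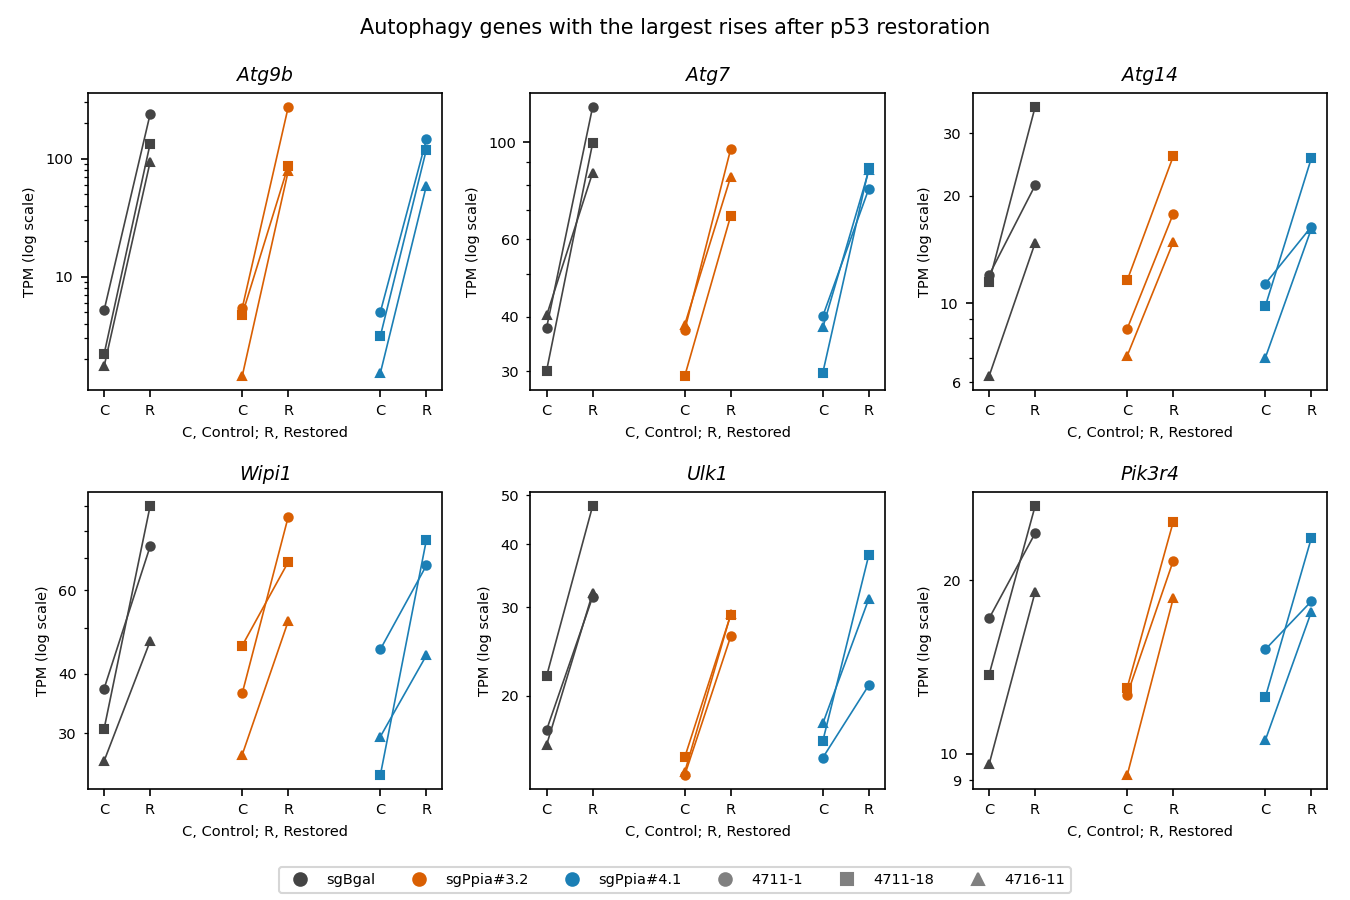
TPM in Control (C) and Restored (R) samples on log axes for the 6 genes with the largest mean responses; lines join samples of the same cell line and sgRNA. Atg9b climbed from 1.44 to 5.42 TPM to 59.1 to 275 TPM, and each of the 6 genes was higher after restoration in 9 of 9 pairs.

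The ATG4 proteases, which prepare LC3 proteins and free them again, gave mixed values. Atg4c passed the adjusted p with sgBgal at a log2 fold change of 0.81 ± 0.19 (0.0129) and had 0.60 and 0.56 with the Ppia sgRNAs, where it passed with the block (0.0215 and 0.0297). With sgBgal its adjusted p was 0.0803 without 4711-1 and 0.168 without 4716-11. Atg4a, which has a pseudogene copy that could share its reads, had 0.47, 0.62 and 0.53 and passed with the block for every sgRNA, Atg4b had 0.09, 0.12 and 0.17, and Atg4d was the gene with the lowest mean difference of the list. Atg4d TPM was 15.9, 22.8 and 18.9 in Control and 14.8, 19.4 and 11.7 in Restored samples with sgBgal, so that each line was lower but the groups overlapped. Its log2 fold changes were -0.32 ± 0.27, -0.27 ± 0.27 and -0.10 ± 0.27 and passed neither fit (lowest limma adjusted p 0.0911). Kri1 on the other strand shares 19.3% of its exonic bases.

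The LC3 and GABARAP proteins, the most highly expressed of the conjugation targets, differed little between states. Their log2 fold changes lay between 0.09 and 0.34 with sgBgal, between 0.16 and 0.45 with sgPpia#3.2 and between 0.08 and 0.50 with sgPpia#4.1, and only Gabarapl2 with sgPpia#4.1 passed the adjusted p without the block (0.50 ± 0.15, limma adjusted p = 0.0499, and 0.166 to 0.281 when a line was left out). With the block Gabarap and Gabarapl2 passed with every sgRNA. Gabarap was 391, 391 and 403 TPM in Control and 462, 496 and 489.8 TPM in Restored samples with sgBgal, and Gabarapl2 was 228, 229 and 226 against 285, 303 and 279. Neither gene's groups overlapped. Map1lc3b, the usual autophagosome marker, was 272, 277 and 234 TPM in Control and 285, 289.6 and 256 in Restored samples, overlapping, and Map1lc3a had log2 fold changes of 0.34, 0.16 and 0.39. Neither passed, nor did Gabarapl1, described below by line (0.17, 0.22 and 0.11). The sign of the Map1lc3b and Gabarapl1 values with sgBgal turned after rescaling (-0.13 and -0.049).

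Sqstm1, the cargo receptor p62, and the lysosomal Dram1 and Dram2 had uneven values over the lines. Sqstm1 was 1129, 854 and 832 TPM in Control and 1648, 2939.7 and 882 in Restored samples with sgBgal, and 769, 1363 and 847 against 1426, 1274 and 956 with sgPpia#3.2. With sgPpia#4.1 it was 1292, 866 and 809 against 1269.8, 2062 and 963. The sample of 4711-18 thus had the highest value of the series with sgBgal and no increase with sgPpia#3.2. The log2 fold changes of 0.80 ± 0.39, 0.32 ± 0.39 and 0.49 ± 0.39 passed for sgBgal only, and only with the block (limma adjusted p = 0.0419). Dram1 stayed low, at 0.992, 0.785 and 0.828 TPM in Control and 1.43, 1.59 and 3.35 TPM in Restored samples with sgBgal. Its log2 fold changes were 0.69, 0.64 and 0.60 and are given with no test, since it was admitted through the Restored samples. Dram2 had 0.38, -0.02 and 0.14 and passed neither fit. Mrnip on the other strand shares 17.3% of Sqstm1 exonic bases.

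The transcription factors of the list differed little between states at the RNA level. Tfeb was 12.2, 17.2 and 17.6 TPM in Control and 13.5, 14.4 and 18.6 TPM in Restored samples with sgBgal, and its log2 fold changes were -0.01, 0.08 and 0.10. Tfe3 had 0.26, 0.12 and 0.23. Both genes' groups overlapped, and neither passed either fit. Activity of these proteins is set largely by where they are in the cell, which was not measured.

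To ask whether cyclophilin A targeting altered the autophagy genes, each Ppia sgRNA was compared with sgBgal within a state. The log2 differences of single genes lay between -0.34 and 0.42 in Control and between -0.51 and 0.24 in Restored samples. All these comparisons share the sgBgal samples. In limma, with or without the block, 0 autophagy genes were called at either threshold in the 4 comparisons or in the 2 interaction tests of the restoration response. Of all genes tested 0% passed without the block, and with it 0.0156% passed for sgPpia#3.2 in Control samples, 0.0078% for sgPpia#3.2 in Restored samples and 0% elsewhere. Ppia itself was thus not called without the block, or with it for sgPpia#4.1, though its RNA was lower in Control samples. The absence of calls therefore says little about smaller differences. At an unadjusted p under 0.05, 1 gene passed without the block, with sgPpia#3.2 in Control samples, and with the block 3 and 2 genes passed for sgPpia#3.2 in Control and Restored samples, 0 and 1 for sgPpia#4.1, and 0 in either interaction test. Of all genes, 2.42% passed without the block for sgPpia#3.2 in Control samples, and with it 12.7% and 8.64% passed for sgPpia#3.2 and 1.26% and 3.31% for sgPpia#4.1.

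The median difference of the 38 genes from sgBgal was -0.08 for sgPpia#3.2 in Control and -0.18 in Restored samples, where all genes had -0.08 and -0.09. For sgPpia#4.1 it was -0.02 and -0.10, where all genes had -0.04 and -0.07. After median-of-ratios rescaling the value for sgPpia#3.2 in Restored samples was -0.07 and that of all genes 0.01. In Restored samples, 19 genes were lower in all 3 lines with sgPpia#3.2 and 13 with sgPpia#4.1, against 33.8% and 26.2% of all genes, and 3 and 3 were higher, against 10.5% and 6.56%. In Control samples 14 and 3 were lower, against 29.1% and 16.4%, and 2 and 1 higher, against 8.96% and 7.23%.

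The differences farthest from 0 in Control samples, given here with the block, were those of Atg9a and Map1lc3a with sgPpia#3.2, and in Restored samples that of Atg9b with sgPpia#4.1. Atg9a was 17.5, 16.4 and 16.0 TPM with sgPpia#3.2 against 22.9, 22.8 and 18.4 with sgBgal, without overlap, at a log2 difference of -0.34 ± 0.10 (limma adjusted p = 0.266). Map1lc3a was 73.0, 96.3 and 104 TPM against 68.3, 58.4 and 75.7, a difference of 0.42 ± 0.17 (0.345), with overlapping groups. Atg9b in Restored samples was lower with sgPpia#4.1 than with sgBgal in all 3 lines, by -0.51 ± 0.22 (0.969).

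**Figure D4:**
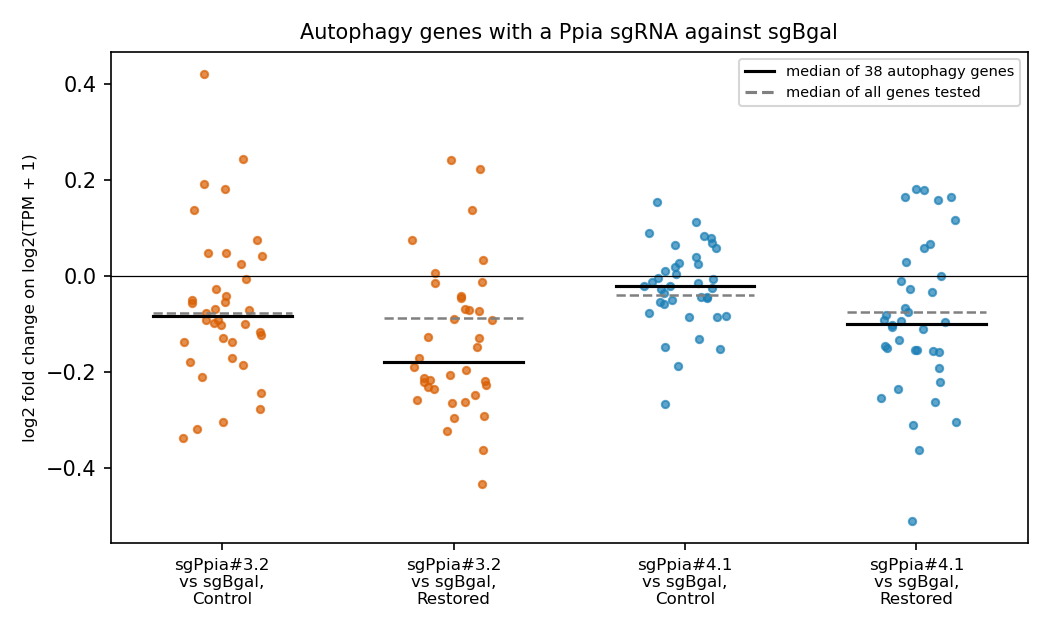
Log2 fold change of each of the 38 genes for each Ppia sgRNA against sgBgal, in Control and in Restored samples; solid bars are the median of the autophagy genes and dashed bars that of all genes tested. The medians range from -0.18 to -0.02, and no gene passed the test.

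The 3 lines were also compared with each other. In a limma moderated F test of the line terms at equal group, 29 of 38 autophagy genes passed the adjusted p, as did 72.7% of all genes. The libraries of a line share their culture of origin, so this test does not measure how far another culture of a line would differ. Atg9b was the only one that also differed by at least 1 on the log2 scale between lines, where 15.1% of all genes did. Atg9b was highest in 4711-1 in both states and lowest in 4716-11, with a range of line means of 1.37 (adjusted p = 2.45e-05). The next ranges were those of Dram2, a lysosomal membrane protein (0.996), and Atg16l2 (0.93). With sgBgal Dram2 was 31.5, 49.1 and 30.5 TPM in Control and 38.1, 91.7 and 30.3 in Restored samples, and Atg16l2 was 3.78, 6.40 and 4.09 against 6.59, 12.0 and 4.85, so that 4711-18 was highest for both. The range of Atg9b was 0.64 without 4711-1 and 0.73 without 4716-11, under the threshold of 1 in both cases, and without 4711-18 the range of Atg16l2 was 0.32 (adjusted p = 0.0822).

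Whether the response to restoration itself differed between lines was asked with a limma F test, with the sgRNA as an additive term, that was chosen after the values were seen. Of the 37 genes other than Dram1 it called 1, Gabarapl1 (2.70%), which is below the 4.92% of all genes called. Gabarapl1 was higher after restoration in 4711-18, at 362, 266 and 267 TPM with sgBgal, sgPpia#3.2 and sgPpia#4.1 against 174, 187 and 167 TPM. Its mean log2 response was 0.74 in 4711-18, -0.05 in 4711-1 and -0.19 in 4716-11 (adjusted p = 0.0379). The adjusted p was 0.0562 without the filter on low values, 0.0507 with a filter of 1 TPM in all samples, 0.0605 with a pseudocount of 0.1, 0.25 without 4716-11 and 0.698 without 4711-18. Dram1 is described without its test, since it passed the filter only through Restored samples. In 4716-11 it went from 0.828, 0.769 and 0.749 TPM to 3.35, 2.88 and 3.35 TPM, and its mean log2 responses were 0.19 in 4711-1, 0.50 in 4711-18 and 1.23 in 4716-11. The 3 samples of a line and state differ in sgRNA and share their culture of origin.

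**Figure D5:**
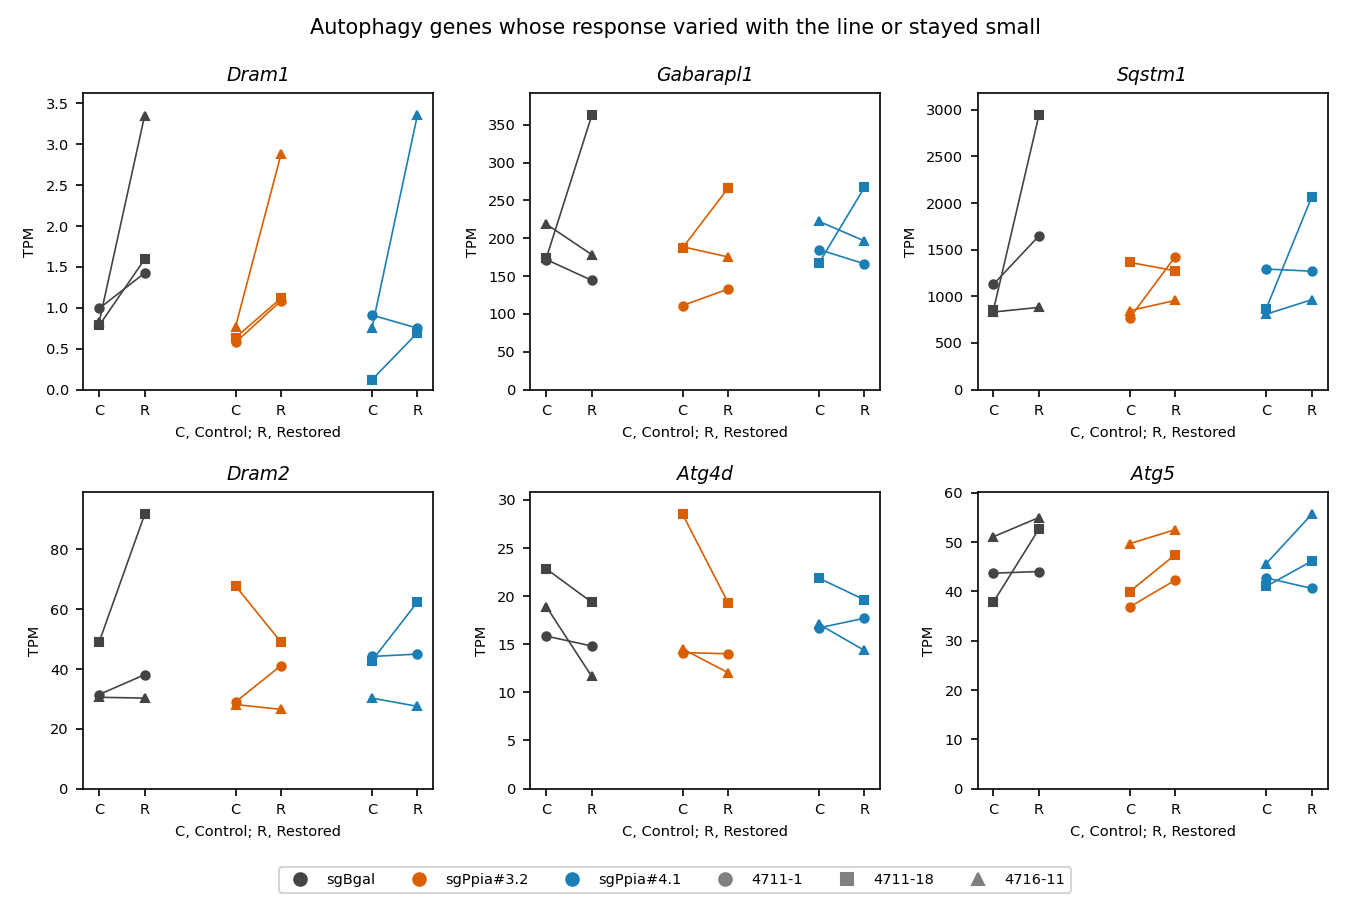
TPM in Control (C) and Restored (R) samples for Dram1, Gabarapl1, Sqstm1, Dram2, Atg4d and Atg5; lines join samples of the same cell line and sgRNA. Dram1 reached 2.88 to 3.35 TPM in 4716-11 alone, and Gabarapl1 increased with every sgRNA in 4711-18.

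The wider pathway was followed through 3 further lists. Of 20 other genes of autophagosome formation and fusion, 4, 5 and 5 were called up and 0 down, where 5.46%, 4.44% and 4.3% of all genes were called up, with median log2 fold changes of 0.55, 0.43 and 0.50. Among those called without the block the largest was Trp53inp1, a p53 target whose protein binds LC3, at 3.92, 3.25 and 3.22, followed by Ei24, an endoplasmic reticulum membrane protein, at 2.01, 2.15 and 1.98, Zfyve1 (1.36, 1.33 and 1.23), Vps41, a subunit of the HOPS tethering complex (1.05, 1.18 and 1.05), and Trp53inp2 (0.95, 1.18 and 1.05). With the block, where 7.7%, 6.4% and 6.26% of all genes were called up, 6, 5 and 5 were called, Tecpr1 (1.19) and Epg5 (1.11) being added with sgBgal. Of 28 lysosome genes, 4, 4 and 4 were called up without the block and 4, 5 and 5 with it, against the same shares of all genes, and 0 down. Their medians were 0.61, 0.59 and 0.56. Those called included the protease genes Ctsd (1.82, 1.80 and 1.86) and Tpp1 (1.78, 1.91 and 1.72) and the heparan sulfate sulfatase Sgsh (1.46, 1.15 and 1.15). The cysteine protease gene Ctsl had 1.70, 1.25 and 1.49 and passed with sgBgal, and with the block for all 3 sgRNAs. The proton pump subunit Atp6v1a had 0.95, 1.05 and 1.09, around the fold threshold. With the block 20, 16 and 17 lysosome genes and 13, 8 and 10 of the other autophagosome genes were higher at the adjusted p alone, against 30.2%, 25.3% and 24.3% of all genes. Lower were 1, 0 and 1 lysosome genes, namely Neu1, a lysosomal sialidase (-0.77 with sgBgal and -0.70 with sgPpia#4.1), and 0 of the others. Of all genes, 12%, 8.86% and 10.8% were lower. No gene of these lists passed an interaction test.

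Of 18 selective autophagy receptors other than Sqstm1, the endoplasmic reticulum receptor Ccpg1 was called with sgPpia#3.2 alone (0.92, 1.09 and 0.96), and the medians were 0.26, 0.28 and 0.28. At the adjusted p alone, 9.86%, 7.62% and 7.16% of all genes were higher and 3.96%, 2.39% and 3.14% lower. Of the 18, Ccpg1 and Tex264 were higher and 1 gene was lower with each sgRNA. The lower one, like Neu1 named after its values were seen, was Phb2, which encodes a prohibitin of the inner mitochondrial membrane (-0.52, -0.49 and -0.51). With the block, 8 of the 18 genes were higher with each sgRNA, against 30.2%, 25.3% and 24.3% of all genes. Lower were 2, 1 and 1, Fkbp8 (-0.32) being added with sgBgal, where 12%, 8.86% and 10.8% of all genes were lower.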

How the data were processed

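The authors deposited TPM, 1 column per sample for 18 samples and 25239 genes. The submitters' processing notes name bcl2fastq 2.17 and HISAT2. The counter is not given in the sources used here, and mm10 and GRCm39 are both named as the build. TPM keep no total count, so that depth is unknown and no counting interval could be given. Genes under 1 TPM in all but 2 or fewer samples were removed, and limma 3.58.1 (R 4.3.3) was fitted to log2(TPM + 1) of the other 12828, with a mean for each of 6 groups. The added 1 makes changes of low genes look smaller. A call needed a Benjamini-Hochberg adjusted p under 0.05 over all genes together with a log2 fold change of 1 or more in size. Interaction and line-response terms needed the adjusted p alone. Libraries of 1 line, paired by the line in the labels, shared their deviations from the group means (mean r = 0.729, lowest 0.58, over 45 pairs), so the fit with the line as a replicate block is given where it moves a call or count. Each group holds 1 sample per line. Without the block, p-values of comparisons between groups measure the spread between lines. With the block they measure the spread left once line means are removed. The F tests set differences between lines against the spread among libraries of the same line. Named in full were genes called in any fit, the 3 largest rises and falls, the 3 widest ranges between lines, Atg5, and the LC3 and GABARAP family, with the rest as members of their complex. From the further lists up to 5 genes called without the block were named by size, and any other name was added after its values were seen. The members and lists were chosen with earlier results of these data known. The alternatives tried are given in the closing section. Exon overlaps were read from GENCODE M21 (GRCm38) and start-proximal windows from RefSeq (GRCm38.p6). Whether counting used strand is not given in the sources used here, so reads of antisense partners cannot be told apart. Only the fit without the block, for restoration with sgBgal, was tested on simulated data. Those values were drawn independently for each library, without the shared deviations of a line. Figures were drawn with matplotlib 3.10.9.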

Additional observations from a re-analysis of the deposited data

Results flagged for a closer look

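The restoration response of Gabarapl1 differed between the cell lines in a limma F test of the difference itself (adjusted p = 0.0379), with a mean log2 response of 0.74 in 4711-18 against -0.05 and -0.19 in 4711-1 and 4716-11. The test was added after the values had been seen, and it called 1 of the 37 autophagy genes other than Dram1 (2.70%), against 4.92% of all genes. The adjusted p was 0.0507 to 0.0605 under the other filters and the other pseudocount, 0.25 without 4716-11 and 0.698 without 4711-18.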

How the results depend on the processing

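TPM keep no depth, so precision rests on the 3 lines. Dram1, under 1 TPM in Control samples, and Atg9b, at 1.44 to 5.42 TPM there, are most exposed to the pseudocount. Over 119 results, 1120 values under the alternatives (another pseudocount, scaling, filter or sample set, the block, trended and robust eBayes, and a line left out) kept the direction and the side of the threshold, 22 kept the direction but no longer passed, 2 newly passed and 32 changed sign. Counts of autophagy genes higher after restoration with sgBgal were 2 rather than 4 after median-of-ratios rescaling and with the compared groups alone, Atg14 and Wipi1 being lost, and 2 to 3 when a line was left out. Of all 12828 genes, 479 rather than 701 were called up after rescaling, 555 with the compared groups alone and 327 to 481 without a line. At the adjusted p alone the count of autophagy genes for sgBgal was 24 with the replicate block, 3 with the compared groups alone and 2 to 4 without a line. Of all genes, 1265 were higher without the block, 3870 with it, 628 with the compared groups alone and 342 to 712 without a line. For sgPpia#3.2 the call gave 1 to 2 autophagy genes and the adjusted p 1 to 4 without a line, and 19 with the block. Of all genes, 198 to 477 were called up and 199 to 709 were higher at the adjusted p without a line, against 570 and 978 with all lines. With the block 3241 were higher. For sgPpia#4.1 the call gave 1 to 2 autophagy genes and the adjusted p 1 to 2 without a line, 19 with the block and 2 with the compared groups alone. Of all genes, 206 to 552 were called up and 211 to 650 were higher at the adjusted p without a line, against 552 and 919 with all lines. With the block 3122 were higher, and 284 with the compared groups alone. The count of 1 call with each Ppia sgRNA came without 4716-11, where Atg7 was lost, and the lowest counts at the adjusted p came without 4716-11 for every sgRNA. The block changed no call between sgRNAs. Between lines, 4 genes were called with a pseudocount of 0.1, where 21.2% of all genes were, and 0 to 1 without a line, where 6.83% to 8.92% were, and 12 to 25 passed the adjusted p without a line. Of all 12828 genes, 4946 to 6848 passed the adjusted p without a line, and 9322 with all lines. The line response, called for 4.92% of all genes, was called, Dram1 included, for 0 autophagy genes with a pseudocount of 0.1 (2.79% of all genes), 1 without the filter (3.26%), 0 with at least 1 TPM in all samples (2.32%) and 0 to 1 without a line (0.468% to 3.03%).

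Changes of sign concerned genes that passed no restoration test. After median-of-ratios rescaling the sgBgal log2 fold changes were -0.032 for Atg2a, -0.016 for Atg2b, -0.13 for Atg4b, -0.023 for Atg5, -0.13 for Map1lc3b and -0.049 for Gabarapl1. With sgPpia#3.2 they were -0.075 for Atg4b, -0.027 for Atg5, -0.18 for Atg9a, -0.040 for Map1lc3a, -0.0069 for Map1lc3b, -0.11 for Tfeb and -0.072 for Tfe3. With sgPpia#4.1 they were -0.013 for Atg2a, -0.0053 for Atg4b, -0.049 for Atg5, -0.10 for Map1lc3b, -0.063 for Gabarapl1, -0.031 for Dram2 and -0.067 for Tfeb. Leaving out a line gave ranges for sgBgal of -0.075 to 0.19 for Atg4b, -0.27 to 0.40 for Gabarapl1 and -0.082 to 0.11 for Tfeb. For sgPpia#3.2 the ranges were -0.015 to 0.053 for Atg9a, -0.27 to 0.21 for Dram2 and -0.019 to 0.28 for Tfe3. For sgPpia#4.1 they were -0.16 to 0.011 for Atg9a, -0.084 to 0.48 for Atg10, -0.17 to 0.26 for Gabarapl1, -0.053 to 0.28 for Dram2 and -0.14 to 0.23 for Tfeb. The cause was not tested.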
